A study of Mus musculus with 3 samples.

Results

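Ccna2, Ccnb1, Ccnb2, Cdk1, Aurka, Aurkb, Plk1, Bub1 and Mki67 encode cyclins, kinases and a marker protein of dividing cells. These 9 genes were taken by name from 21523 protein-coding genes of a RefSeq table in mm10 coordinates. No measured value entered the rule, but earlier results of these data were known when the genes were chosen. For each gene and culture day, the nucleosome positions listed in the gene with 5 kb on each side, its span, and within 500 bp of both gene ends were analysed. In the 9 spans lay 749 positions (day 0), 743 (day 1) and 801 (day 2), of 3735952, 2999502 and 4474045 positions in the whole lists. Within 500 bp of the gene ends lay 62, 61 and 65 of them.

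The cells put into culture were erythroblasts, the nucleated precursors of red cells, from the livers of 6 mouse fetuses. These starting cells lacked the later erythroid surface marker Ter119, and whether cells of days 1 and 2 still lacked it was not measured here. The cells grew in IMDM medium with insulin, 1% BSA, 2 U/ml erythropoietin and 10% fetal bovine serum, and were taken on culture days 0, 1 and 2. Chromatin was cut by micrococcal nuclease, which digests the DNA between nucleosomes, and the DNA of single nucleosomes was sequenced to follow nucleosomes through the last stage of red cell formation. The strain, the age of the fetuses and any sharing of a culture between days are not stated in the sources used here, and the cell type cannot be checked because nucleosome positions do not measure expression.

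Cyclins switch on cyclin-dependent kinases, and cyclins of the A and B types bring cells into mitosis together with Cdk1. Aurora kinases, Plk1 and Bub1 then act on centrosomes, spindle and chromosomes, and erythroblasts leave this cycle before they lose their nucleus. Promoters of mitotic genes are known in mouse and human cells for boxes bound by the factor NF-Y and for an element called the cell cycle genes homology region, bound by complexes that hold these genes down outside of division. An active promoter often has a stretch poor in nucleosomes before the start site and a well-placed nucleosome just inside the gene.

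There was 1 library per day, so the days were not tested against each other and no difference below has a replicate check. The summit value, which is the smoothed coverage that the authors give for each centre, had a median of 7.62, 6.8 and 6.26 on days 0, 1 and 2. Read totals are not stated in the sources used here, and the steps on which summit values lie correspond to a depth 2.36 times as high on day 1 and 1.22 times as high on day 2 as on day 0. Day, depth and culture cannot be told apart in any comparison of days. Relative occupancy is the sum of the summit values in a window per bp, divided by the same quantity over the autosomes of that library, so that 1 is the autosome mean. It sums listed positions, so it also follows how many positions were listed.

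Promoter sequences, each from 250 bp before to 49 bp after the start site, were matched for 7 of the 9 genes in a RefSeq table of GRCm38.p6, whose coordinates are those of mm10. All 7 promoters held CCAAT, the core of the box bound by NF-Y, which was found in 39.6% of the 17274 promoters of the table. At least 2 copies stood in 6 of them, against 13.6% of all promoters. TTTGAA, a form of the homology region element, stood in 5 of the 7 (16% of all promoters), and TTTAAA, another form, in 3 of the 7 (11.7%). Either form stood in 6 of the 7, the exception being Bub1 (24.9% of all promoters), and those 6 genes thus held CCAAT and a homology region element together (10.4%). AGATAA, a motif bound by the erythroid GATA factors, was in none of the 7 and in 9.99% of all promoters. Both strands were searched, CCAAT reads ATTGG on the opposite strand, and no match at these genes overlapped a match of another motif. The median GC content was 57.7% in the 7 promoters and 56.3% in all.

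Of these sequences 4 are printed because they show the arrangements that the nucleosome positions are set against below: 3 evenly placed boxes before the start site (Ccnb2), boxes in a long stretch free of position centres (Cdk1), boxes with neither searched form of the homology region (Bub1) and boxes placed farther from the start (Mki67). They are written 5′ to 3′ along the gene, with every match of the NF-Y box, on either strand, and of the homology region forms in capitals. The windows are chr9:70421505-70421804 for Ccnb2, chr10:69352863-69353162 for Cdk1, chr2:127831810-127832109 for Bub1 and chr7:135716330-135716629 for Mki67, all on the minus strand.
Ccnb2: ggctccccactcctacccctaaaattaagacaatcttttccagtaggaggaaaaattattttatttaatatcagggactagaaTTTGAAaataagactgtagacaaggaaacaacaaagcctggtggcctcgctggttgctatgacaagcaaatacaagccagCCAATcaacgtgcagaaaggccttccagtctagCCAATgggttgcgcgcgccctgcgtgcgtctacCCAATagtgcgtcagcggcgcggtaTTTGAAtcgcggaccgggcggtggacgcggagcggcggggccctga
Cdk1: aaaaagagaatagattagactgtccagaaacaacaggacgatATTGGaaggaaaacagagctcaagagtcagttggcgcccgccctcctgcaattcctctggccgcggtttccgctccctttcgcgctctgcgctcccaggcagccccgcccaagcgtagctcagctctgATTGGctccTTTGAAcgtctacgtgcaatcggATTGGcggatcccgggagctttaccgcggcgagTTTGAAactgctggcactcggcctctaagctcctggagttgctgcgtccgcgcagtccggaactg
Bub1: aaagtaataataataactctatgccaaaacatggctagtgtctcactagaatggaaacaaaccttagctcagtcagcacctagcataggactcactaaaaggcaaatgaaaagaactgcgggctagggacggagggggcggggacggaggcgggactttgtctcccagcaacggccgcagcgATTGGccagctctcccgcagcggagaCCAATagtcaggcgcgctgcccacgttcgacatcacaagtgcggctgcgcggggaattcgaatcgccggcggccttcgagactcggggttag
Mki67: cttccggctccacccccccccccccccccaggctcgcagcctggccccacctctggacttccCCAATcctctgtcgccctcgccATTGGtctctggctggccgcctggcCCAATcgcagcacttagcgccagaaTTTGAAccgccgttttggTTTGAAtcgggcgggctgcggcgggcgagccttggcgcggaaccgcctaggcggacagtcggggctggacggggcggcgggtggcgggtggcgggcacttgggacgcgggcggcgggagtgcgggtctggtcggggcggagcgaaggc
In Ccnb2 the 3 CCAAT matches begin 87, 54 and 21 bp before the start site, and TTTGAA matches begin 167 bp before it and 4 bp inside the gene. The Cdk1 matches of CCAAT, on the opposite strand, begin 208, 80 and 48 bp before the start site, with TTTGAA at 71 and 15 bp before it. Bub1 has its CCAAT matches at 68 and 42 bp before the start site, and Mki67 at 188, 166 and 141 bp before it, followed by TTTGAA at 116 and 98 bp. The matches are letters in a window and do not show that a factor was bound in these cells.

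Around these start sites, the stretch that holds the CCAAT matches was mostly free of listed positions on all 3 days. A position centre lay within 200 bp inside the gene at nearly every member, in a window chosen after seeing the data. The 7 promoters held 16 CCAAT matches, all before the start site. A match was counted as covered when its middle lay under a 140 bp position. Of the 16, 0 were covered on day 0, 1 on day 1 and 1 on day 2, in each case the match nearest to the start site of Ccnb2. Among 10222 CCAAT matches in all promoters, 19.7%, 18.7% and 24.2% lay under a position. Those matches were taken from the whole promoter window, inside the gene as well, and were not matched for distance from the start site. The 12 matches of the homology region forms were under a position in 4, 3 and 3 cases, against 21.8%, 18.4% and 27.6% of 5489 matches in all promoters. With a footprint of 200 bp in place of 140 bp, 3, 4 and 5 of the 16 CCAAT matches were covered. The share over all promoters was not computed at 200 bp, so these counts cannot be set against the shares above. The matches share promoters and so are not independent of each other, and the small numbers do not set these genes apart from others.

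**Figure D1:**
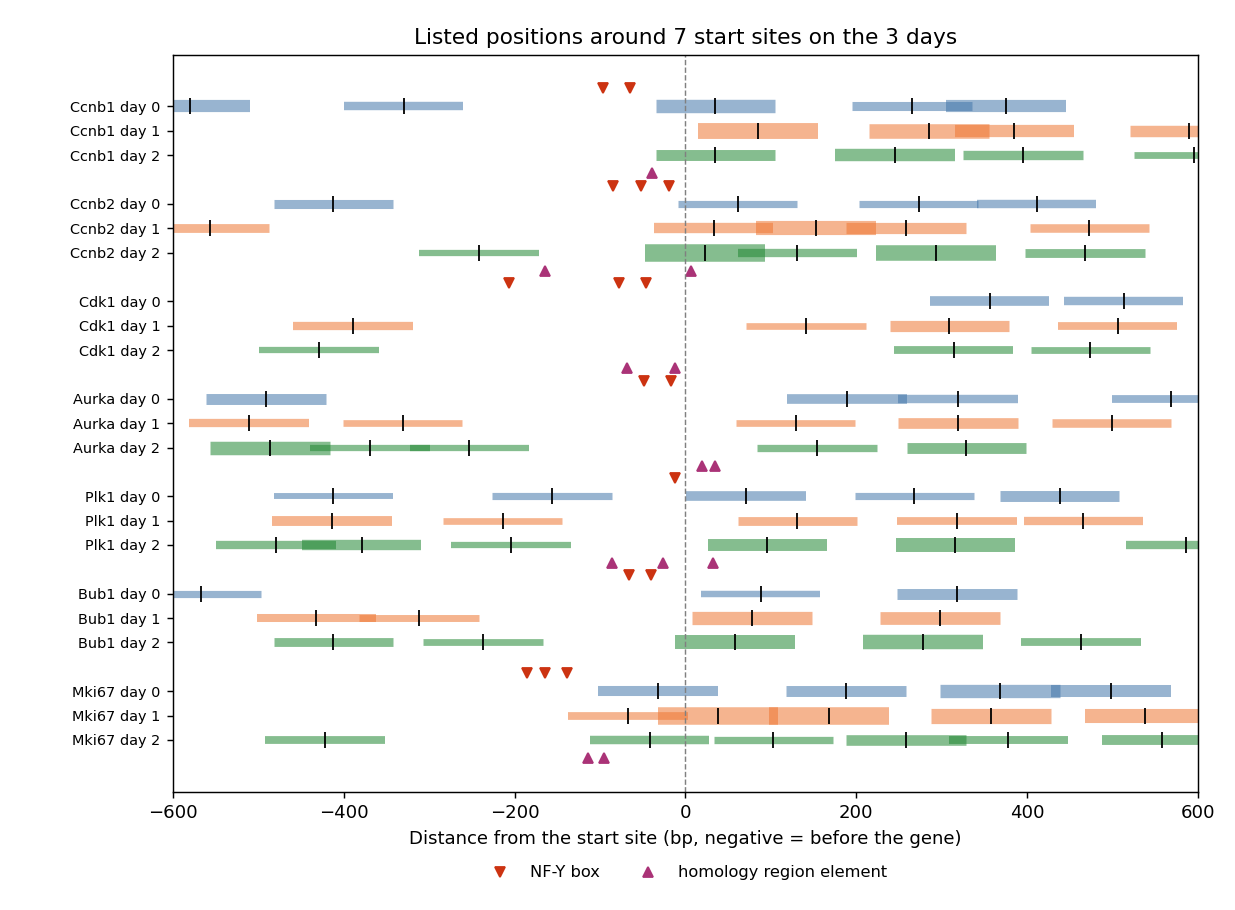
Listed nucleosome positions from 600 bp before to 600 bp after the start sites of 7 genes (x axis, distance in bp), 1 row per gene and day. Bars are the 140 bp positions, thicker at higher summit values, ticks their centres, and triangles the middles of CCAAT matches (NF-Y box, above each gene's rows) and of TTTGAA or TTTAAA matches (homology region element, below them). The CCAAT triangles lie in gaps between bars except at Ccnb2, where the match at 21 bp before the start site was covered on days 1 and 2.

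A centre less than 200 bp inside the gene was listed at 6 of the 7 genes on day 0, at 7 on day 1 and at 6 on day 2, with Cdk1 missing on days 0 and 2. Over 17274 genes the shares were 57.5%, 64.0% and 66.4%. From 200 to 1 bp before the start site, a centre was listed at 2 genes on day 0 (Mki67 and Plk1) and at 1 gene, Mki67, on days 1 and 2, while the shares over all genes were 38.4%, 39.6% and 47.1%. The start site itself lay under a position at 3, 2 and 4 of the 7 genes, against 30.7%, 31.8% and 38.3% of all genes. These are counts over 7 genes with no test. With a window of 300 bp, a centre before the start site was listed at 2 genes (day 0), 2 (day 1) and 5 (day 2), so the low count on day 2 depended on the window. The shares over all genes in that window were 50.4%, 50.8% and 60.7%. Inside the gene, a window of 300 bp gave 6, 7 and 6 genes, beside 67.4%, 72.0% and 77.1% of all genes. A window of 150 bp gave 4, 7 and 5, beside 47.9%, 53.6% and 56.0%, so the count inside also depended on the window. With summit values of 10 or more in the window of 200 bp, the number with a centre inside was 2, 4 and 4, beside 19.3%, 31.7% and 20.2% of all genes. Where several start sites exist, only that of the promoter table was used, which lies 316 bp inside the table's gene end at Aurka and 71 bp inside it at Mki67.

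Among the cyclins, Ccnb1 stood well above the median of all genes on day 1, Ccnb2 stood moderately above it on every day, and Ccna2 stood below it. Ccna2, the cyclin that acts in S phase and at mitotic entry, lies on chromosome 3 from 36564865 to 36573038. Its span had 41, 33 and 44 positions on days 0, 1 and 2 and a relative occupancy of 1.39, 1.44 and 1.4, which placed it at percentile 40.4, 42.7 and 42.5 of all genes. The span was nearly level over the days. The span also takes in Exosc9, which overlaps the gene by 863 bp, and Bbs7, which begins 104 bp away, so its positions cannot be given to Ccna2 alone. At the gene ends 6, 3 and 4 positions gave a relative occupancy of 1.99, 0.943 and 0.892, highest on day 0. The ends were lower on day 1 than on day 0 by 1.08 and on day 2 than on day 0 by 1.15 on the log2 scale, past the size rule, a change of 2 times where each day has 3 positions or more. The ratio of position numbers, scaled for the different length of the lists, was 0.622 for day 1 over day 0 (exact conditional binomial 95% interval 0.101 to 2.91) and 0.561 for day 2 over day 0 (0.117 to 2.37). Both intervals include 1, and all such intervals cover counting error only. In windows of 1000 bp these changes were -0.58 and -0.33.

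Ccnb1, the main cyclin of mitotic entry and the partner of Cdk1, lies on chromosome 13 from 100778739 to 100786486 on the minus strand. Its span held 73, 89 and 66 positions with a relative occupancy of 3.26, 5.07 and 2.4, at percentile 79.3, 89.7 and 71.7 of all genes. Day 1 was thus the highest and day 2 the lowest. The change on day 2 over day 1 was -1.08 on the log2 scale, the only change over a span of the 9 genes past 2 times, and the scaled ratio of position numbers was 0.502 (0.36 to 0.698). Counted once per position the change was -0.99, and scaled to the median gene window it was -0.89, both just short of 2 times. Over all genes the medians in these settings were -0.34 and -0.08. The gene ends had 8, 8 and 5 positions and a relative occupancy of 3.09, 4.55 and 1.89, with a log2 change on day 2 over day 1 of -1.27. The first position inside the gene was centred 35, 85 and 35 bp from the start site with summit values of 13.7, 16.7 and 10.7, above the all-gene medians of 7.62, 8.42 and 7.51 for such positions. Before the start site the nearest centre was 330, 667 and 1028 bp away, and the stretch free of centres across the start site was therefore 365, 752 and 1063 bp long. Over all genes with positions on both sides, the median of that stretch was 435, 380 and 350 bp.

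Ccnb2, a B-type cyclin found mainly at the Golgi apparatus in interphase cells, lies on chromosome 9 from 70407689 to 70421554 on the minus strand. The span had 85, 73 and 96 positions and a relative occupancy of 2.47, 2.87 and 2.38, and the ends had 8, 6 and 9 positions and 2.34, 3.33 and 3.46. No change in these windows reached 2 times. At the start alone, with 4, 4 and 5 positions, the relative occupancy was 2.41, 4.85 and 4.66, and the log2 change of 1.01 for day 1 over day 0 was just past 2 times. Over 7556 genes measured at the start alone, the median change was 0.65, and the share past 2 times was not computed. At the printed promoter, the first position inside the gene was centred 61, 33 and 23 bp from the start site, with summit values of 6.1, 9.95 and 18.7 and fuzziness scores of 46.0, 51.7 and 43.7. The day 2 position had the highest summit value in the span on that day and reached over the CCAAT match nearest to the start site. The boxes beginning 87 and 54 bp before the start site were under no listed position on any day.

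Cdk1, the kinase that the mitotic cyclins switch on, had few positions at its start site and a span below the median of all genes. It lies on chromosome 10 from 69335146 to 69352912 on the minus strand, with no other annotated gene in its span. The span had 63, 59 and 73 positions and a relative occupancy of 1.43, 1.62 and 1.33. At the ends 5, 4 and 4 positions gave 1.56, 1.63 and 0.997. All changes in these windows stayed under 2 times, while in windows of 1000 bp the gene ends had a log2 change of -1.20 for day 2 over day 1, past it. The median over all genes in windows of 1000 bp was -0.48. In the 500 bp on each side of the start alone, 1, 3 and 3 positions were listed. The first centre inside the gene was 356, 141 and 314 bp from the start site, and the stretch free of centres across it was 1020, 530 and 743 bp long, on each day longer than the median of all genes. The 3 CCAAT matches of the printed Cdk1 sequence fell in this stretch on all days, and so did both TTTGAA matches.

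Of the Aurora kinases, Aurkb had the highest occupancy of the 9 spans on days 0 and 2, though not of the 9 pairs of gene ends on day 2. Aurkb, the kinase of the chromosomal passenger complex that corrects spindle attachment, lies on chromosome 11 from 69045624 to 69051664. Its span held 76, 72 and 79 positions, at 4.74, 4.49 and 4.92 positions per kb, and had a relative occupancy of 4.27, 4.96 and 3.91, at percentile 94.1, 88.6 and 98.2 of all genes. Summit values of 10 or more made up 51.3%, 45.8% and 50.6% of those in the span. By this measure Aurkb also led the 9 genes on all 3 days. The 100 kb on each side of the span, which hold 11 other protein-coding genes, had 4.28, 4.94 and 3.21, close to the span on days 0 and 1 and lower on day 2. The span also contains 3 tRNA genes. At the gene ends 8, 7 and 7 positions gave 3.7, 3.19 and 2.74, and at the end with the lower coordinate a position centred 107, 117 and 117 bp inside the gene was listed on every day, with summit values of 14.5, 8.09 and 7.51.

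Aurka, the kinase of centrosomes and spindle poles, lies on chromosome 2 from 172356190 to 172370886 on the minus strand. The span had 90, 107 and 91 positions and a relative occupancy of 2.58, 3.79 and 2.28, highest on day 1. The scaled ratio of position numbers was 1.48 for day 1 over day 0 (1.11 to 1.98) and 0.576 for day 2 over day 1 (0.431 to 0.769). On the log2 scale these were 0.56 and -0.80, beside medians of 0.21 and -0.34 over all genes counted in the same way. Such intervals are set against the whole lists and not against these medians. Cstf1 overlaps the gene end by 242 bp and Fam210b begins 441 bp from the other end, so part of these positions lies in neighbours. The ends had 6, 8 and 8 positions with 2.34, 3.43 and 2.55. The first centre inside the gene was 189, 129 and 154 bp from the start site with summit values of 9.15, 5.5 and 6.26. Its CCAAT matches, beginning 51 and 19 bp before the start site, were under no listed position on any day.

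Plk1, the polo-like kinase that promotes mitotic entry and spindle formation, lies on chromosome 7 from 122159435 to 122169884 on the plus strand. The span held 91, 86 and 90 positions and a relative occupancy of 3.26, 3.6 and 2.87, and the ends held 10, 9 and 11 positions and 3.03, 4.01 and 4.17. No change reached 2 times. The scaled ratio of position numbers over the span was 0.709 for day 2 over day 1 (0.521 to 0.964). On the log2 scale this was -0.50, beside a median of -0.34 over all genes counted in the same way. Its ends stood at percentile 74.7, 72.5 and 96.6 of all genes, the last being the highest of the 9 genes on day 2. Ern2 begins 9 bp beyond the gene, so the window at the far end is shared with it. The nearest centre before the start site lay 156, 214 and 204 bp away, nearer than at the other members except Mki67, and the first position inside was at 71, 131 and 96 bp.

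Bub1, a kinase of the spindle assembly checkpoint, had listed positions inside the gene, next to its start site, with higher summit values on days 1 and 2 than on day 0. It lies on chromosome 2 from 127800197 to 127831859 on the minus strand, with no other annotated gene in its span. The first position inside the gene was centred 88, 78 and 58 bp from the start site, with summit values of 5.22, 13.5 and 14.4 and fuzziness scores of 52.8, 46.0 and 42.3 on days 0, 1 and 2. The second followed at 318, 298 and 278 bp, with summit values of 10.7, 12.9 and 15 and fuzziness scores of 44.7, 51.0 and 42.1. The nearest centre before the start site lay 567, 312 and 237 bp away, with summit values of 6.1, 5.83 and 5.63. On later days the first 2 positions inside the gene thus had higher summit values, the position before it did not, and the nearest centres on both sides lay closer to the start site.

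The Bub1 gene ends as a whole had 3, 4 and 7 positions and a relative occupancy of 1.07, 2.21 and 2.76. The log2 change was 1.05 for day 1 over day 0 and 1.37 for day 2 over day 0, both past 2 times. The ratio of position numbers had wide intervals, 1.66 (0.28 to 11.3) and 1.96 (0.448 to 11.8), and in windows of 1000 bp the changes were 0.01 and 0.44. Most of the signal lay at the start, with a relative occupancy of 1.36, 4.42 and 4.2 there and 0.782, 0 and 1.31 at the far end. The span went another way, with 96, 60 and 109 positions and a relative occupancy of 1.45, 1.13 and 1.43, lowest on day 1. It was below its own surroundings of 100 kb on each side on all 3 days, at 0.649, 0.539 and 0.752 times their occupancy, where the other members were at 0.989 times or more.

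Mki67 encodes Ki-67, a protein of the surface layer of mitotic chromosomes and the antigen used to mark dividing cells. Mki67 had the largest change of the 9 spans for day 1 over day 0. It lies on chromosome 7 from 135689784 to 135716450 on the minus strand. Its span had 134, 164 and 153 positions and a relative occupancy of 2.64, 4.39 and 2.67, at percentile 68.0, 83.2 and 78.4 of all genes. Day 1 over day 0 was 0.73 on the log2 scale, where position numbers had a scaled ratio of 1.52 (1.2 to 1.93). Day 2 over day 1 was -0.71, with a ratio of 0.632 (0.504 to 0.792). Counted once per position the log2 changes were 0.61 and -0.66, beside medians of 0.21 and -0.34 over all genes. With summits under 10 left out, day 1 over day 0 was 1.10, past 2 times, beside a median of 0.17 over 12969 genes. The gene ends had 8, 12 and 10 positions and 3.34, 6.51 and 3.04, the day 1 value being the highest of the 9 genes in any library. Their log2 change on day 2 relative to day 1 was -1.10, and -0.82 in windows of 1000 bp. Both ends took part, with 2.89, 6.75 and 3.2 at the start and 3.78, 6.27 and 2.89 at the far end.

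The start site of Mki67 lay under a listed position on every day. Its nearest centre before the start site lay only 32, 67 and 42 bp away, with summit values of 9.6, 6.8 and 7.69, and the first centre inside lay at 188, 38 and 103 bp, with 10.7, 18.7 and 6.26. The stretch free of centres was 220, 105 and 145 bp long, the shortest of the 7 genes on each day. In the printed sequence the CCAAT matches begin 188 to 141 bp before the start site, and the middle of none lay under a position. The TTTGAA match beginning 98 bp before the start site was under a position on all 3 days.

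**Figure D2:**
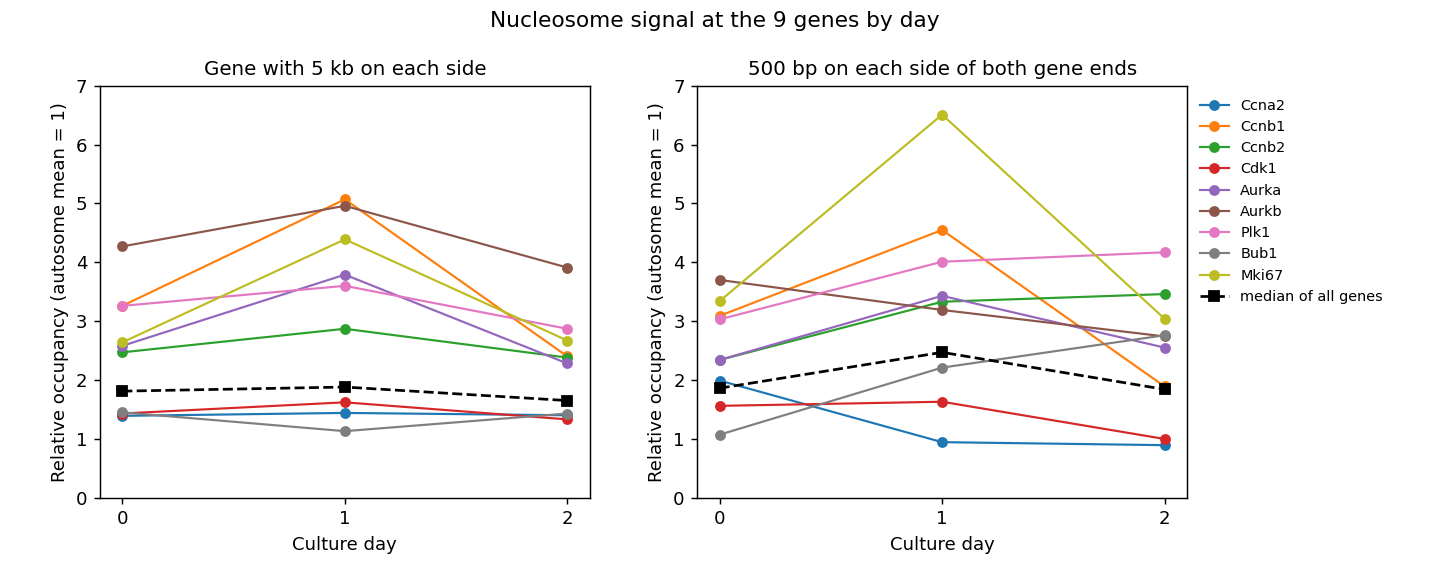
Relative occupancy (y axis, autosome mean = 1) of the 9 genes on culture days 0, 1 and 2 (x axis), in the gene with 5 kb on each side (left) and within 500 bp of both gene ends (right). Each point is 1 library, so there are no error bars, and the black squares are the median of all genes. In the spans Aurkb (4.27, 4.96 and 3.91) stands highest on days 0 and 2 and Ccna2, Cdk1 and Bub1 lie below the all-gene median, while at the gene ends Mki67 reaches 6.51 on day 1.

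Ordered by span, the 9 genes fell into the same low group on every day, with Ccna2, Cdk1 and Bub1 between 1.13 and 1.62 and the other 6 at 2.28 or above. Above that break, Aurkb led on day 0 with 4.27, ahead of Ccnb1 and Plk1 at 3.26 each. On day 1 Ccnb1 (5.07) and Aurkb (4.96) were close together, and on day 2 Aurkb (3.91) was ahead of Plk1 (2.87). With 1 library per day, neighbours in these orders have no spread against which to set them. The median of the 9 genes was 2.58, 3.6 and 2.38, and that of all genes 1.81, 1.88 and 1.65. Summits of 10 or more made up 2.7% to 9.1% at Ccna2, Cdk1 and Bub1. Of the other 6 genes Ccnb2 had a share in that range on day 2, at 8.3%.

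Set against all genes, the changes of the 9 genes between days were ordinary in size. Over spans, 8 of the 9 had a higher relative occupancy on day 1 than on day 0, with a median log2 change of 0.21 and a range from -0.36 (Bub1) to 0.73 (Mki67), where the median of 19744 genes was 0.16 and 62.6% of them were above 0. Scaled to the median gene window, Ccna2 moved to -0.01. On day 2 relative to day 1, 8 of the 9 were lower, with a median of -0.33 and a range from -1.08 (Ccnb1) to 0.33 (Bub1), beside a median of -0.26 over all genes, of which 35.7% were above 0. Under the other scaling Ccna2 was at 0.15. On day 2 relative to day 0, 7 of the 9 were lower, with a median of -0.10 beside -0.14 over all genes, of which 38.2% were above 0, and none moved by more than 0.44 in either direction. That last median turned to 0.03 when scaled to the median gene window and to 0.32 when summits under 10 were left out, measured at 8 genes, where the median for day 2 over day 1 was also above 0, at 0.03. No direction is therefore settled for day 2 over day 0.

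By the size rule of 2 times, none of the 9 spans was higher or lower on day 1 than on day 0, beside 2.00% and 7.02% of all genes. On day 2 relative to day 1, none was higher and 1, Ccnb1, was lower, beside 10.4% and 0.643% of all genes. On day 2 relative to day 0 none was higher or lower, beside 6.93% and 1.92%. At the gene ends, 1 of the 9 was higher on day 1 than on day 0 (Bub1) and 1 lower (Ccna2), beside 16.2% and 1.30% of 14093 genes. In the step to day 2 from day 1 none was higher and 2 were lower, Ccnb1 and Mki67, beside 0.596% and 19.8%. Between day 2 and day 0, Bub1 was higher and Ccna2 lower, beside 4.23% and 6.51%. All 9 genes had at least 3 positions on each day in both windows. The 3 comparisons share libraries and are not independent of each other.

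**Figure D3:**
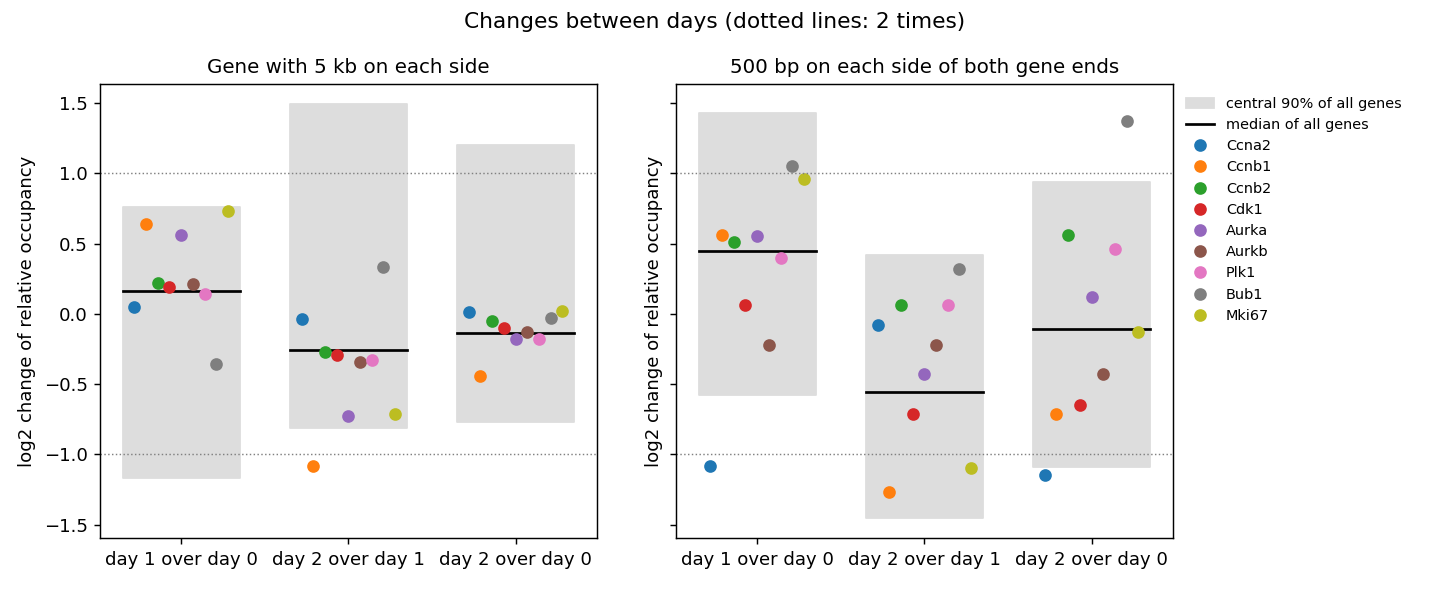
Log2 change of relative occupancy (y axis) for each of the 9 genes between days (x axis), over spans (left) and at gene ends (right). Grey boxes hold the central 90% of all genes and black lines are their medians, with dotted lines at 2 times. Over spans Ccnb1 (-1.08, day 2 over day 1) lies outside the grey box and past 2 times, and at gene ends Bub1 (1.37) and Ccna2 (-1.15) lie outside it for day 2 over day 0.

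At the gene ends the medians of the 9 genes were 0.51, -0.22 and -0.13 for day 1 over day 0, day 2 over day 1 and day 2 over day 0, beside 0.45, -0.56 and -0.11 over all genes. Relative to these medians of all genes, Ccna2 had a log2 difference of -1.52 for day 1 over day 0 and -1.04 for day 2 over day 0, and Bub1 had differences of 0.60, 0.87 and 1.48 in the same order of comparisons. Ccnb1 and Mki67 had -0.71 and -0.54 for day 2 over day 1. Scaled to the median gene window, the members' median for day 2 over day 1 turned to 0.21. With the start alone, measured at 5 genes, the median for day 2 over day 0 turned to 0.39, so the direction at gene ends also depended on these choices.

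The changes over spans went with those of the DNA around them at some genes and not at others. Over 100 kb on each side of the span, log2 changes for day 1 over day 0 were 0.36 around Ccnb1, 0.26 around Aurka and 0.33 around Mki67, where the spans had 0.64, 0.56 and 0.73. For day 2 over day 1 the surroundings had -0.52, -0.55 and -0.55, beside -1.08, -0.73 and -0.71 in the spans. In these 3 genes the span moved the same way as its surroundings and farther. Cdk1 and Ccna2 moved opposite to their surroundings in both steps. Cdk1 had 0.19 for day 1 over day 0 and -0.29 for day 2 over day 1, with -0.35 and 0.17 around it. Ccna2 had small changes of 0.05 and -0.04, with -0.26 and 0.10 around it. Scaled to the median gene window, the Ccna2 span had -0.01 and 0.15, the same signs as its surroundings, which were not rescaled. Ccnb2 was opposite for day 1 over day 0 alone, at 0.22 with -0.16 around it, and had -0.27 with -0.15 for day 2 over day 1. Bub1 was opposite in the step to day 2 alone, with -0.36 and 0.33 in the span and -0.09 and -0.15 around it. Plk1 had 0.14 and -0.33, with 0.16 and -0.42 around it. Aurkb had 0.21 and -0.34, with 0.21 and -0.62 around it. Spans of all genes were not set against their surroundings, in change or in level. Whether moving farther than the surroundings, or opposite to them, is common among genes was therefore not tested. These patterns do not set the members apart from other genes.

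**Figure D4:**
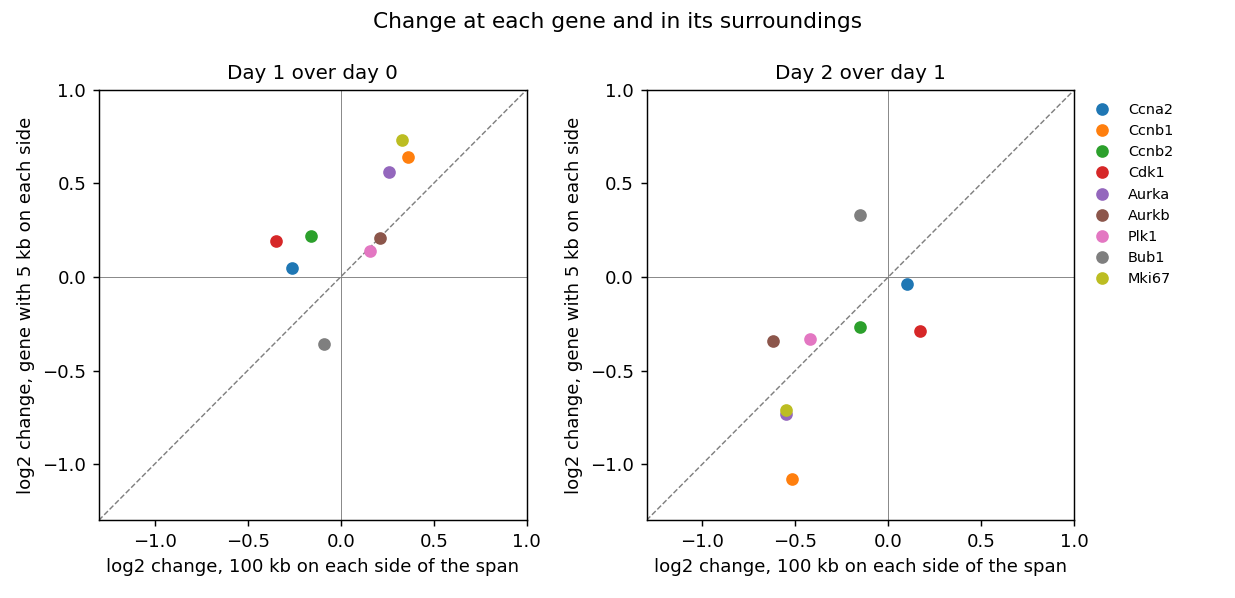
Log2 change of relative occupancy of each gene with 5 kb on each side (y axis) against that of 100 kb on each side of the span (x axis), for day 1 over day 0 (left) and day 2 over day 1 (right). The dashed line marks equal change. Ccnb1, Aurka and Mki67 lie farther from 0 than their surroundings in both panels (0.64, 0.56 and 0.73 on the left), and Cdk1 and Ccna2 lie on the other side of 0 from their surroundings in both. For Ccna2 this rests on small changes of 0.05 and -0.04. Spans of all genes were not compared with their surroundings.

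Most single positions had no counterpart close by on another day. Of the 743 positions in the spans on day 1, 20.6% had a day 0 centre within 20 bp (exact Clopper-Pearson 95% interval 17.7 to 23.7%, counting error only), and after shifts of 1000 bp the share was 17.6%. The shares of the 801 day 2 positions were 19.2% near a day 1 centre (16.6 to 22.1%, 17.2% after shifts) and 18.6% near a day 0 centre (16 to 21.5%, 16% after shifts). Over the spans of all genes the shares were 18.7%, 15.5% and 16.1%, with 14.6%, 11.8% and 12.6% after shifts. Listed and shifted shares were both higher at the 9 genes, where the median distance between neighbouring centres was 220, 208 and 223 bp on days 0, 1 and 2 beside 241, 230 and 240 bp over all genes. The excess over the shifted share was smaller at the 9 genes, at 2.96, 2.06 and 2.56 percentage points beside 4.08, 3.7 and 3.48. Bub1 had the widest gap for day 1 near day 0, with 12 of 60 positions or 20% (10.8 to 32.3%) beside 8.33% after shifts. Mki67 had the highest share for day 2 near day 1, at 28.1% (21.1 to 35.9%) beside 22.9%. At Cdk1 the share for day 1 near day 0 was 6.78% (1.88 to 16.5%), below its shifted share of 11%. Among summits of 10 or more, the share for day 2 near day 0 was 16.3% of 141 positions, beside 6.03% after shifts. That gap was wider than for all listed positions. The gap was not wider for day 1 near day 0 (10.6% beside 7.65%) or for day 2 near day 1 (9.22% beside 7.8%). No share over the spans of all genes was computed for such summits.

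**Figure D5:**
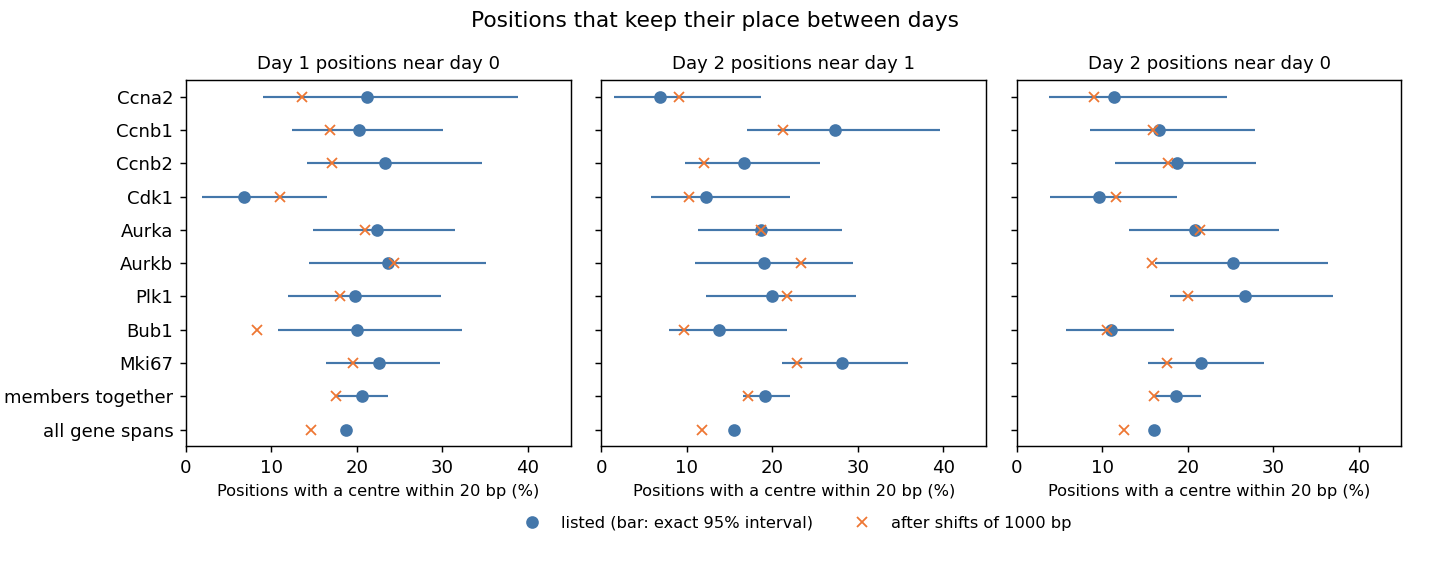
Share of the positions of the later day with a centre of the earlier day within 20 bp (x axis, %) in each gene span, in the 9 spans together and in the spans of all genes (y axis), for the 3 pairs of days. Bars are exact 95% intervals of counting error and crosses the share left when 1 list was shifted by 1000 bp, averaged over both directions. Together the 9 spans had 20.6%, 19.2% and 18.6%, with crosses at 17.6%, 17.2% and 16%.

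Only 38 of the 801 day 2 positions, 4.74%, had centres of both earlier days within 20 bp, beside 3.52% over the spans of all genes. Mki67 held 14 of them, Aurka 8, Plk1 6, Ccnb1 and Aurkb 4 each, and Ccnb2 and Cdk1 1 each, while Ccna2 and Bub1 held 0. The kept position of Cdk1 was centred at base 69340606 of chromosome 10, inside the gene, on all 3 days, with summit values of 5.34, 5.83 and 5.63. In Ccnb1 a position at base 100782531 of chromosome 13, also inside the gene, had the same centre on all days and summit values of 7.62, 9.06 and 12.5. A Plk1 position before the gene, at base 122156791 of chromosome 7, had 7.62, 5.83 and 7.51. In Mki67 the kept position nearest to the start site was centred at bases 135716011, 135716021 and 135716001, with 13.6, 15.9 and 7. No comparison with shifted lists was made for positions kept on all days.

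Other genes of mitosis were described in the same way. In a list of 40 further genes of the spindle, kinetochore, checkpoint, cytokinesis and the regulators of mitotic transcription, all were measured over spans. The median log2 changes were 0.30 for day 1 over day 0, -0.47 for day 2 over day 1 and -0.23 for day 2 over day 0, beside 0.16, -0.26 and -0.14 over all genes. Above 0 were 35, 7 and 8 of the 40, beside 62.6%, 35.7% and 38.2% of all genes. Past 2 times, 1 gene was higher in the last 2 of these comparisons, Aurkc, and none was lower. At gene ends 36 were measured, with medians of 0.42, -0.58 and -0.19. There 3 genes were higher and none lower for day 1 over day 0, 2 higher and 6 lower for day 2 over day 1, and 2 higher and 3 lower for day 2 over day 0, beside the shares of all genes given above.

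For day 2 over day 0 the largest changes over spans in that list were at Aurkc, an Aurora kinase of germ cells (1.11), Mad2l1, a checkpoint protein (0.66), and Incenp, the scaffold of the passenger complex (0.45). Aurkc rests on 7, 4 and 16 positions and a relative occupancy of 0.198, 0.153 and 0.429, far below the autosome mean. Mad2l1 had 0.887, 1.14 and 1.4, and Incenp 1.91, 3.18 and 2.62. The smallest were at Wee1, the kinase that holds Cdk1 inactive (-0.53), Birc5, a subunit of the passenger complex (-0.49), and Cdc25b, a phosphatase that releases Cdk1 (-0.43). Wee1 had 2.94, 3.18 and 2.04 and Birc5 4.15, 5.74 and 2.94. The genes whose pattern over the 3 days lay nearest to the median pattern of the 9 were Kif20a, a mitotic kinesin, at a Euclidean distance of 0.042 in centred log2 relative occupancy, Lin9, a subunit of the MuvB complex, at 0.043, and Nusap1, a spindle protein, at 0.084. With 3 days such distances rest on few values.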

How the data were processed

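The data are 3 deposited lists of nucleosome positions, 1 library each for culture days 0, 1 and 2. The genome build was mm10 and the tools included bedtools and Bowtie2, per the submitters' processing notes. Versions, position caller, its settings and read totals are not stated in the sources used here. Per the file headers, each list gives the start, end and summit place of a position, and all positions are 140 bp wide with centres at least 100 bp apart. The summit value deposited by the authors is a smoothed coverage signal. It lies on whole steps of 0.762, 0.324 and 0.626 (98.5%, 97.4% and 98.7% of values, with a tolerance of 0.01 steps), from which the relative depths 1, 2.36 and 1.22 were inferred. The authors also deposited a fuzziness score per position, for the scatter of reads about its centre, without a stated unit. The deposited p-values of summit and fuzziness were used in no comparison.

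Sums and counts per gene were computed with numpy 2.4.6, scipy 1.17.1 and pandas 2.3.3 under Python 3.11.15 and tested on simulated data, and figures were drawn with matplotlib 3.10.9. In the gene table, autosomal and X-linked genes numbering 21523 were used, without 108 genes placed below 3 Mb, a range that holds unplaced sequence. The autosome length was taken as the sum of the highest listed centre of each chromosome, 2460743997 bp. The RefSeq promoter table gave the strand and start site of 7 members and of 17274 genes, and Ccna2 and Aurkb were analysed without strand. A gene counted as higher or lower past 2 times, given 3 positions or more on every day. This rule of size is no test. Shared positions have centres within 20 bp, and shifted shares are means over shifts of 1000 bp in both directions.

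The members and gene lists were chosen with earlier results of these data known, and the 200 bp windows at start sites were chosen after seeing the data. Of the 40 further mitotic genes, the 3 largest and the 3 smallest log2 changes over spans for day 2 over day 0, and the 3 genes nearest to the median pattern of the members, were named by rule. Alternatives changed the flank, window, scaling, footprint, minimum number of positions, summit value and size rule. No sample was dropped or imputed.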

Additional observations from a re-analysis of the deposited data

How the results depend on the processing

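No paired analysis was possible because each day has 1 library, and no replicate could be left out. Over spans the members' median log2 change was 0.44 for day 1 over day 0 without flanks, where the reported value was 0.21. For day 2 over day 1, reported as -0.33, it was -0.43 with each position counted once, 0.03 with summits under 10 left out and -0.14 scaled to the median gene window. For day 2 over day 0, reported as -0.10, it was 0.32 and 0.03 in the last 2 of these settings. Members past the size rule over spans numbered 1 with summits under 10 left out and 2 at 1.5 times as higher on day 1 than on day 0 (0 reported). As lower on day 2 than on day 1 they numbered 0 with each position counted once, 0 scaled to the median gene window and 3 at 1.5 times (1 reported). At gene ends, the median for day 1 over day 0, reported as 0.51, was 0.24 in windows of 1000 bp, 0.64 in windows of 200 bp (3 genes), 0.16 with each position counted once and 0.10 scaled to the median window. The median for day 2 over day 1, reported as -0.22, was -1.06 in windows of 200 bp, -0.06 at the start alone (5 genes), -0.56 counted once and 0.21 scaled to the median window. The median for day 2 over day 0, reported as -0.13, was -0.03 in windows of 1000 bp, -0.42 in windows of 200 bp and 0.39 at the start alone. Members past the size rule at gene ends, 1 higher and 1 lower for day 1 over day 0, numbered 0 higher and 0 lower counted once, 0 higher scaled to the median window and 2 higher at 1.5 times. The 2 lower on day 2 than on day 1 became 1 counted once and 0 scaled. Between day 2 and day 0, counting once left 0 higher and 0 lower, and 1.5 times gave 3 lower. For these alternative counts past the size rule, over spans and at gene ends, no share of all genes was computed. They therefore cannot be set against the shares given for the reported rule. Positions at gene ends with a summit value of 10 or more gave no value, since no member had 3 of them on each day. Shared positions made up 13.7%, 11.6% and 11.4% within 10 bp, for day 1 near day 0, day 2 near day 1 and day 2 near day 0, and 35.1%, 35.2% and 33.2% within 40 bp. At a summit value of 10 or more they were 10.6%, 9.22% and 16.3%, beside 7.65%, 7.8% and 6.03% after shifts. With such positions only, the start site was covered at 1 member on day 0, 1 on day 1 and 3 on day 2. No share over all genes was computed for that cover. A centre lay before the start site at 0, 0 and 0 members, beside 9.46%, 12.4% and 9.51% of all genes. Inside the gene a centre lay at 2, 4 and 4 members, beside 19.3%, 31.7% and 20.2%. Settings added after seeing the data gave 1 member with a centre before the start site on day 0 in a window of 150 bp, 2 on day 1 and 5 on day 2 in a window of 300 bp, and 3, 4 and 5 covered CCAAT matches with a footprint of 200 bp. For these windows the shares over all genes were 28.6%, 50.8% and 60.7%, and no share over all promoters was computed for that footprint. The causes of these differences were not tested. The 7 changes of single members past 2 times had 27 alternatives with a value, apart from the minimum of positions, which removes nothing here. All 27 had the same direction and 9 were still past 2 times. At gene ends the 3 to 12 positions per member and day limit every value.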

Other observations

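The distance between the first and second listed centres inside the gene differed between the members, with 1 distance per gene and day. At Bub1 the first and second centres inside the gene lay 230, 220 and 220 bp apart on days 0, 1 and 2, and at Ccnb1 230, 200 and 210 bp. At Cdk1 this distance was 157, 168 and 160 bp, and at Ccnb2 212, 120 and 108 bp, so that these 140 bp positions of Ccnb2 overlap on days 1 and 2. Aurka had 130, 190 and 175 bp, Plk1 197, 187 and 220 bp and Mki67 180, 130 and 155 bp. Over whole spans the median fuzziness score of the 9 genes was 52.4, 55.8 and 52.9, beside 51.4, 54.6 and 51.7 over all genes, and the mean summit value had a median of 8.27, 7.81 and 7.37, beside 7.74, 7.2 and 6.76. Both measures followed the libraries as a whole, in which the median fuzziness score was 51.0, 54.5 and 51.0.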
